A study of Mus musculus with 14 samples.

Results

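The transcripts described here are 9 genes of the small intestinal crypt, *Lgr5*, *Ascl2*, *Olfm4*, *Smoc2*, *Axin2*, *Rnf43*, *Znrf3*, *Sox9* and *Lrig1*, which mark its stem cells or are targets of Wnt signalling. They were chosen by name among the 18781 genes of the deposited expression table, and all 9 were present. All 9 also passed the filter on low values, which kept the 12802 genes with a log2 mean of 3.32 or more. RNA was sequenced from untreated small intestinal organoids, crypt-derived epithelial cultures that were kept in Intesticult medium. The 4 WT libraries came from organoids with floxed alleles of both genes and no Cre recombinase (ATG16L1flox/flox_RNaseH2Bflox/flox). The 4 *Atg16l1* ΔIEC libraries (ATG16L1flox/flox_VillinCre+/-) carried the deletion of *Atg16l1*, which is needed for autophagy. The 2 *Rnaseh2b* ΔIEC libraries (RNaseH2Bflox/flox_VillinCre+/-) carried the deletion of a subunit of RNase H2, the enzyme that removes ribonucleotides from DNA. The 4 *Atg16l1/Rnaseh2b* ΔIEC libraries (ATG16L1flox/flox_RNaseH2Bflox/flox_VillinCre+/-), here the double knockout, carried both floxed genes with Cre. Villin-Cre deletes floxed alleles in intestinal epithelial cells, so every knockout group carried the Cre transgene and the WT group did not. The authors left out 2 further *Rnaseh2b* ΔIEC samples because of their read counts, and the age of the donor mice is not given in the sources used here.

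Wnt ligands bind Frizzled and LRP receptors, which stops a complex of Axin, Apc, Gsk3 and other proteins from destroying β-catenin, and β-catenin then activates target genes together with TCF factors. R-spondins amplify the signal by binding Lgr receptors and removing Rnf43 and Znrf3, ubiquitin ligases that clear Frizzled from the cell surface. In the crypt this signal maintains the columnar stem cells at the base, and several of its targets, such as *Axin2*, *Rnf43* and *Znrf3*, are themselves inhibitors that limit it.

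Promoter sequence (RefSeq, GRCm38.p6) was held by the tables used here for 5 of the 9 genes, in 6 windows. The 250 bases before a RefSeq start of transcription are printed for 3 of them. *Ascl2* and *Axin2* are Wnt targets whose differences over all libraries had the same sign in every comparison below, and *Olfm4* is the member that behaved differently. The *Ascl2* window is chr7:142969265-142969514 on the minus strand, the *Axin2* window is chr11:108920099-108920348 on the plus strand, and the *Olfm4* window is chr14:80000052-80000301 on the plus strand. Each ends at the base before the RefSeq start, and capitals mark the motifs described after the sequences. The *Olfm4* window lies inside the gene as GENCODE M21 places it (79984081 to 80023139), so its RefSeq start is not the GENCODE start.
Ascl2: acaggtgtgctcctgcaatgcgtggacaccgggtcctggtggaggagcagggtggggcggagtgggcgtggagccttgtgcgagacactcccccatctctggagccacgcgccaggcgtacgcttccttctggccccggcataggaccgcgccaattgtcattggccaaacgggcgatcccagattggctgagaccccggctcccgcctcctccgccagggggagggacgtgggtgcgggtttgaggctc
Axin2: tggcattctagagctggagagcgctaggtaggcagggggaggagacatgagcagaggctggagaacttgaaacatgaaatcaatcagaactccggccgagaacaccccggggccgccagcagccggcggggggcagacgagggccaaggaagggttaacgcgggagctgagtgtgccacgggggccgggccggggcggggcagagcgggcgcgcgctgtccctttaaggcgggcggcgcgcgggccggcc
Olfm4: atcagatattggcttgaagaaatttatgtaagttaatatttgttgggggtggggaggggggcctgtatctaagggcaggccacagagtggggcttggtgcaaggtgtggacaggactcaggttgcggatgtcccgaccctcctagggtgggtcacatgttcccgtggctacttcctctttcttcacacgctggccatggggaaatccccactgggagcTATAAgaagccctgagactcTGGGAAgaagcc
The TCF/LEF motifs CTTTGAA and CTTTGAT, searched on both strands, were in 0 of the 6 member windows and in 7.48% of all 32851 RefSeq windows of the same length. In capitals in the *Olfm4* window are the TATA letters TATAA (bases 32 to 28 before the start) and the letters TGGGAA (12 to 7), which the Notch pathway factor RBPJ recognises. Searched on both strands, they occurred in 22.8% and 21.6% of all windows, and each in 1 of the 6 member windows. The matches did not overlap, and these last motifs were picked after the *Olfm4* window had been read. A match describes the letters of the window and is not a measured site.

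The deposited values are log2 values from -2.13 to 17.45, and low genes are pulled together between libraries, which understates differences in weakly expressed genes. The read depth is unknown. As a check of the genotypes, *Atg16l1* averaged 9.46 in WT, 6.92 in *Atg16l1* ΔIEC, 8.39 in the double knockout and 9.52 in *Rnaseh2b* ΔIEC libraries. *Rnaseh2b* averaged 8.54, 8.62, 7.81 and 7.18 in the same order of groups. The double knockout thus held less of each transcript than WT and more than the single knockout of that gene, so neither transcript was lost to the same extent there, and comparisons of the double knockout with a single knockout differ in the level of both. The epithelial label was borne out by enterocyte markers with a summed log2 level of 17.10 to 18.34 in every library, whereas 12 of 15 listed stromal and immune markers were in the table, with a summed log2 level of 8.34 to 8.91. Of these, *Vim*, *Cd14*, *Pecam1* and *Lyz2* passed the filter (means 7.87, 6.85, 4.37 and 3.86), and the other 8 did not, among them *Cd3e*, *Adgre1* and *Col1a2*, markers of T cells, macrophages and fibroblasts, at or below -1.31. By the library names, the WT libraries were all sequenced in lane 1 and the single knockout libraries all in lane 2, whereas *Atg16l1/Rnaseh2b* ΔIEC libraries 1 and 2 were in lane 2 and libraries 3 and 4 in lane 1. The double knockout is thus the one genotype through which a lane difference can be estimated. In the 3 genotypes with 4 libraries, libraries 1 and 2, and libraries 3 and 4, deviated together from their genotype's mean (r across genes 0.406 to 0.864 over 6 pairs). Other combinations within a genotype had r of -0.901 to -0.691, values that are lowered because deviations from a mean sum to 0. For the 2 *Rnaseh2b* ΔIEC libraries this could not be examined, and the fits below treat them as a pair. Libraries 1 and 2, and 3 and 4, are called paired libraries in what follows. The labels do not say which libraries came from separate animals, so p-values measure the spread between these libraries, which may in part be technical.

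Per kilobase of exon, the 9 genes spanned the range from moderate to very abundant transcripts. In WT organoids *Smoc2* was the most abundant, with a log2 level per kb of 10.89 (96.0th percentile of 12783 genes with a known length). *Lrig1* followed at 10.17, *Olfm4* at 9.66, *Lgr5* at 9.37, *Rnf43* at 8.85, *Axin2* at 8.47 and *Sox9* at 7.56. *Znrf3* at 6.49 and *Ascl2* at 6.09 were below the middle of the distribution (38.2nd and 32.6th percentile). The values by library that follow are log2 normalized values without a length correction.

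**Figure D1:**
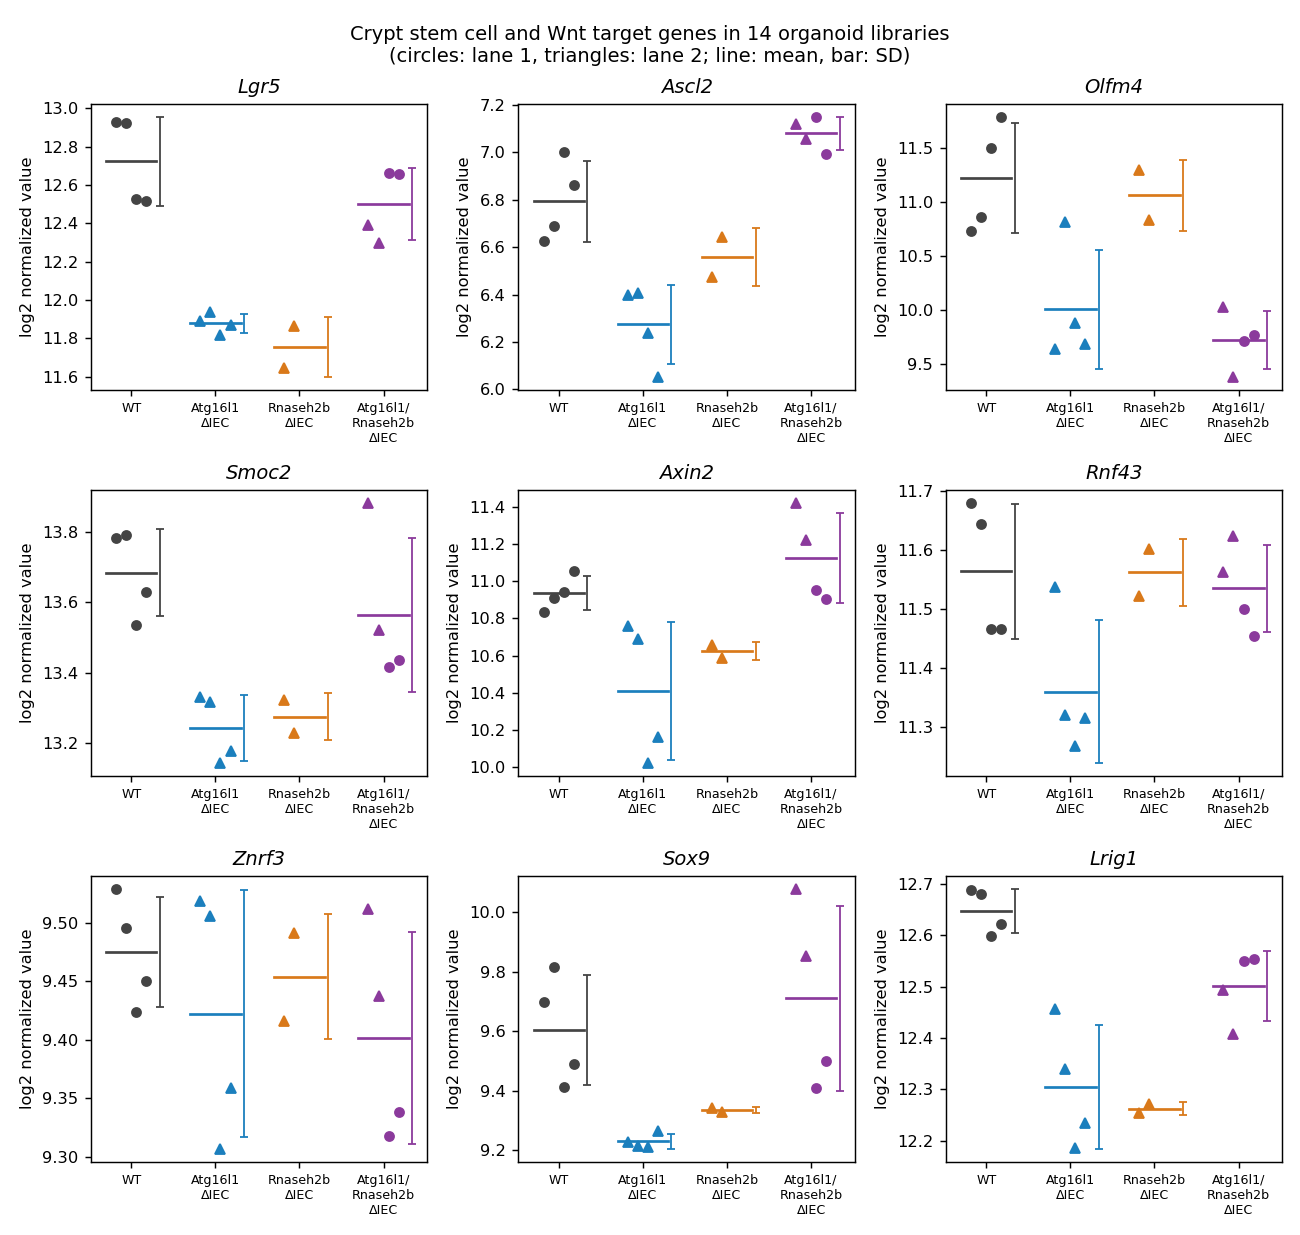
Log2 normalized value of each of the 9 genes (y axis, a separate scale for each gene) in the 14 libraries, grouped by genotype (x axis). Circles are lane 1 and triangles lane 2 libraries, lines are group means and bars are SDs. *Lgr5*, *Smoc2*, *Axin2*, *Sox9* and *Lrig1* are lower in every library of either single knockout than in every WT library, while *Olfm4* is low in the *Atg16l1* ΔIEC and *Atg16l1/Rnaseh2b* ΔIEC groups.

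*Lgr5* (ENSMUSG00000020140, GRCm38 chromosome 10, 115450311 to 115587780, minus strand) encodes the R-spondin receptor that defines crypt base columnar stem cells. Its values were 12.93, 12.92, 12.53 and 12.52 in WT libraries 1 to 4 and 11.89, 11.94, 11.82 and 11.87 in *Atg16l1* ΔIEC. They were 11.65 and 11.87 in *Rnaseh2b* ΔIEC and 12.39, 12.30, 12.66 and 12.66 in *Atg16l1/Rnaseh2b* ΔIEC. The single knockouts formed a low range that met neither WT nor the double knockout, whose libraries 3 and 4 lay within the WT range. In the order of mean level, WT was above the double knockout, which was above *Atg16l1* ΔIEC and *Rnaseh2b* ΔIEC. Of the neighbours in this order, the double knockout and *Atg16l1* ΔIEC differed by the test, and the other neighbours did not pass it.

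*Lrig1* (ENSMUSG00000030029, chromosome 6, 94604529 to 94700158, minus strand) encodes a membrane protein that restrains EGF receptors and marks crypt stem cells. It read 12.69, 12.68, 12.60 and 12.62 in WT, 12.46, 12.34, 12.19 and 12.24 in *Atg16l1* ΔIEC, 12.25 and 12.27 in *Rnaseh2b* ΔIEC, and 12.49, 12.41, 12.55 and 12.55 in *Atg16l1/Rnaseh2b* ΔIEC libraries. All double knockout libraries were below all WT libraries, and library 2 of that group fell below *Atg16l1* ΔIEC library 1. The order of means was that of *Lgr5*, over a narrower range.

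*Smoc2* (ENSMUSG00000023886, chromosome 17, 14279506 to 14404790, plus strand) encodes a secreted calcium-binding matrix protein enriched in *Lgr5*+ stem cells. WT libraries held 13.78, 13.79, 13.54 and 13.63, *Atg16l1* ΔIEC 13.33, 13.32, 13.14 and 13.18, *Rnaseh2b* ΔIEC 13.32 and 13.23, and *Atg16l1/Rnaseh2b* ΔIEC 13.88, 13.52, 13.41 and 13.44. The double knockout overlapped WT, and its library 1 was above every other library. No neighbours in the order of means passed the test for this gene.

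*Ascl2* (ENSMUSG00000009248, chromosome 7, 142966829 to 142969264, minus strand) encodes a transcription factor that controls stem cell identity together with Wnt signalling. Its levels were 6.62, 6.69, 7.0 and 6.86 in WT, 6.40, 6.41, 6.24 and 6.05 in *Atg16l1* ΔIEC, 6.47 and 6.64 in *Rnaseh2b* ΔIEC, and 7.12, 7.06, 7.15 and 6.99 in *Atg16l1/Rnaseh2b* ΔIEC libraries. The double knockout was the highest group for this gene, and only its library 4 reached into the WT range. *Sox9* (ENSMUSG00000000567, chromosome 11, 112782224 to 112787760, plus strand), a transcription factor of the crypt base and a Wnt target, read 9.70, 9.82, 9.41 and 9.49 in WT and 9.23, 9.21, 9.21 and 9.26 in *Atg16l1* ΔIEC. It was at 9.34 and 9.33 in *Rnaseh2b* ΔIEC and at 10.08, 9.85, 9.41 and 9.5 in *Atg16l1/Rnaseh2b* ΔIEC. Libraries 1 and 2 of the double knockout were above all WT libraries, whereas its libraries 3 and 4 were at the lower end of WT.

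*Axin2* (ENSMUSG00000000142, chromosome 11, 108920349 to 108950783, plus strand) encodes a scaffold of the β-catenin destruction complex and is the standard feedback target of the pathway. Values of 10.83, 10.91, 10.94 and 11.05 were found in WT, 10.76, 10.69, 10.02 and 10.16 in *Atg16l1* ΔIEC, 10.66 and 10.59 in *Rnaseh2b* ΔIEC, and 11.42, 11.22, 10.95 and 10.91 in *Atg16l1/Rnaseh2b* ΔIEC libraries. As for *Sox9*, the double knockout split by pair, with libraries 1 and 2 above WT and libraries 3 and 4 within it. *Atg16l1* ΔIEC libraries 3 and 4 were lower than all others, a split by pair within 1 lane. In the double knockout lane and pair are the same split, so lane-adjusted and within-lane values cannot be told apart from values for 1 pair.

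*Rnf43* (ENSMUSG00000034177, chromosome 11, 87662722 to 87735539, plus strand) and *Znrf3* (ENSMUSG00000041961, chromosome 11, 5276324 to 5444847, minus strand) encode the Frizzled-clearing ligases. *Rnf43* ranged from 11.47 to 11.68 in WT, from 11.27 to 11.54 in *Atg16l1* ΔIEC, from 11.52 to 11.60 in *Rnaseh2b* ΔIEC and from 11.45 to 11.62 in *Atg16l1/Rnaseh2b* ΔIEC libraries. *Znrf3* stayed between 9.31 and 9.53 in all 14 libraries. These were the members whose group means lay closest together.

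*Olfm4* (ENSMUSG00000022026, chromosome 14, 79984081 to 80023139, plus strand) encodes a secreted glycoprotein of crypt stem cells, known as a target of Notch rather than of Wnt signalling. It was at 10.74, 10.86, 11.51 and 11.79 in WT and at 11.30 and 10.83 in *Rnaseh2b* ΔIEC, and at 9.64, 10.82, 9.88 and 9.68 in *Atg16l1* ΔIEC and 10.02, 9.38, 9.71 and 9.77 in *Atg16l1/Rnaseh2b* ΔIEC libraries. Its low values thus lay in the *Atg16l1* ΔIEC and double knockout groups, and *Atg16l1* ΔIEC library 2 was the single library of these at the WT level. *Olfm4* had the widest spread of the 9 genes in WT (SD 0.51, n = 4) and *Atg16l1* ΔIEC (SD 0.55, n = 4), against 0.23 and 0.05 for *Lgr5*, but not in the double knockout, where its SD was 0.27 and that of *Sox9* 0.31.

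Deletion of *Rnaseh2b* alone, compared with WT, came with lower levels of 3 of the 9 genes and higher levels of 0. *Lgr5* was 1.96-fold lower (log2 difference -0.97 ± 0.13 SE, adjusted p = 0.00032), *Smoc2* 1.33-fold lower (-0.41 ± 0.11, adjusted p = 0.019) and *Lrig1* 1.31-fold lower (-0.38 ± 0.06, adjusted p = 0.0012). Over all 12802 genes, 12.3% were called lower and 14.4% higher. The libraries of the groups did not overlap for 5 of the 9, namely *Lgr5*, *Smoc2*, *Axin2*, *Sox9* and *Lrig1*, where the share over all genes was 55.5%. All 9 differences were negative, with a median of -0.27 against 0.00 over all genes. *Axin2* (-0.31, 95% confidence interval -0.72 to 0.09, adjusted p = 0.24), *Sox9* (-0.27, -0.60 to 0.06, adjusted p = 0.21) and *Ascl2* (-0.24, -0.48 to 0.01, adjusted p = 0.14) did not pass the test. *Olfm4* differed by -0.16 with a wide interval (-0.89 to 0.56, adjusted p = 0.76). For *Rnf43* (0.00 to 2 decimals, -0.17 to 0.17) and *Znrf3* (-0.02, -0.17 to 0.13) the intervals leave room only for small differences. In bulk RNA, fewer stem cells and less of the transcript per cell cannot be told apart. WT was the one group without Cre, so in each comparison with WT the part of Cre cannot be told apart from genotype. Each single knockout differed from WT in lane too.

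In the same comparison 10 of 11 enterocyte markers were higher, with a summed log2 level of 18.20 to 18.34 in *Rnaseh2b* ΔIEC against 17.25 to 17.79 in WT, and 3 of 7 goblet and 3 of 5 tuft cell markers were lower. Of 12 proliferation genes, 1 was lower, and the summed level was 15.48 to 15.50 against 15.49 to 15.53. The part of these markers in the members' differences was not tested. The *Smoc2* call was lost without either *Rnaseh2b* ΔIEC replicate (without replicate 1, -0.46, adjusted p = 0.08, and without replicate 2, -0.36, adjusted p = 0.15). With lane as a covariate, *Lgr5* differed by -0.65 (adjusted p = 0.026) and *Smoc2* by -0.69 (adjusted p = 0.011), *Sox9* became a call at -0.78 (adjusted p = 0.0058), and *Lrig1* was no longer a call at -0.28 (adjusted p = 0.063). With the paired libraries as correlated blocks, *Smoc2* was no longer a call (adjusted p = 0.16) and *Lgr5* and *Lrig1* were.

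Deletion of *Atg16l1* alone came with lower levels of 7 of the 9 genes than in WT and higher levels of 0, where 10.4% of all genes were called lower and 8.73% higher. *Olfm4* had the greatest difference, at 2.33-fold lower (-1.22 ± 0.28, adjusted p = 0.0085), although *Atg16l1* ΔIEC library 2 overlapped WT. *Lgr5* was 1.80-fold lower (-0.85 ± 0.11, adjusted p = 0.00024). *Axin2* was 1.44-fold lower (-0.52 ± 0.15, adjusted p = 0.03), *Ascl2* 1.43-fold (-0.52 ± 0.09, adjusted p = 0.0023), *Smoc2* 1.36-fold (-0.44 ± 0.09, adjusted p = 0.0061), *Lrig1* 1.27-fold (-0.34 ± 0.05, adjusted p = 0.00082) and *Rnf43* 1.15-fold (-0.20 ± 0.06, adjusted p = 0.043). *Sox9* missed the threshold (-0.37, -0.64 to -0.11, adjusted p = 0.051), although all *Atg16l1* ΔIEC libraries were below all WT libraries, and *Znrf3* differed by -0.05 (-0.17 to 0.07, adjusted p = 0.55). The libraries did not overlap for 6 members (24.6% of all genes), namely *Lgr5*, *Ascl2*, *Smoc2*, *Axin2*, *Sox9* and *Lrig1*. The median of the 9 differences was -0.44.

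The calls of *Lgr5*, *Lrig1*, *Ascl2*, *Smoc2* and *Olfm4* in *Atg16l1* ΔIEC held in all 14 fits that each left out 1 library. The *Axin2* call was lost without WT replicate 2, 3 or 4 or *Atg16l1* ΔIEC replicate 3 or 4, where its difference was -0.53, -0.52, -0.48, -0.40 and -0.44 (adjusted p = 0.058 to 0.091). The *Rnf43* call was lost without WT replicate 1 or 2, *Atg16l1* ΔIEC replicate 2, 3 or 4, either *Rnaseh2b* ΔIEC replicate or *Atg16l1/Rnaseh2b* ΔIEC replicate 3, at -0.17 to -0.20 (adjusted p = 0.051 to 0.12). *Sox9* became a call without WT replicate 3 (-0.44) or without *Atg16l1/Rnaseh2b* ΔIEC replicate 1, 3 or 4 (-0.37 in each). With the paired libraries as correlated blocks (consensus correlation 0.645), 3 members were called, *Lgr5*, *Ascl2* and *Lrig1*. With lane as a covariate, *Olfm4* (-1.18, adjusted p = 0.13), *Lrig1* (-0.24, adjusted p = 0.081) and *Rnf43* (-0.32, adjusted p = 0.069) were no longer calls and *Sox9* was (-0.89, adjusted p = 0.0019). The goblet cell markers were lower for 4 of 7 genes in this comparison and the Paneth cell markers for 2 of 11. The enterocyte markers had a median difference of 0.24 and a summed level of 17.31 to 17.99 against 17.25 to 17.79. The part of these markers in the members' differences was not tested.

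**Figure D2:**
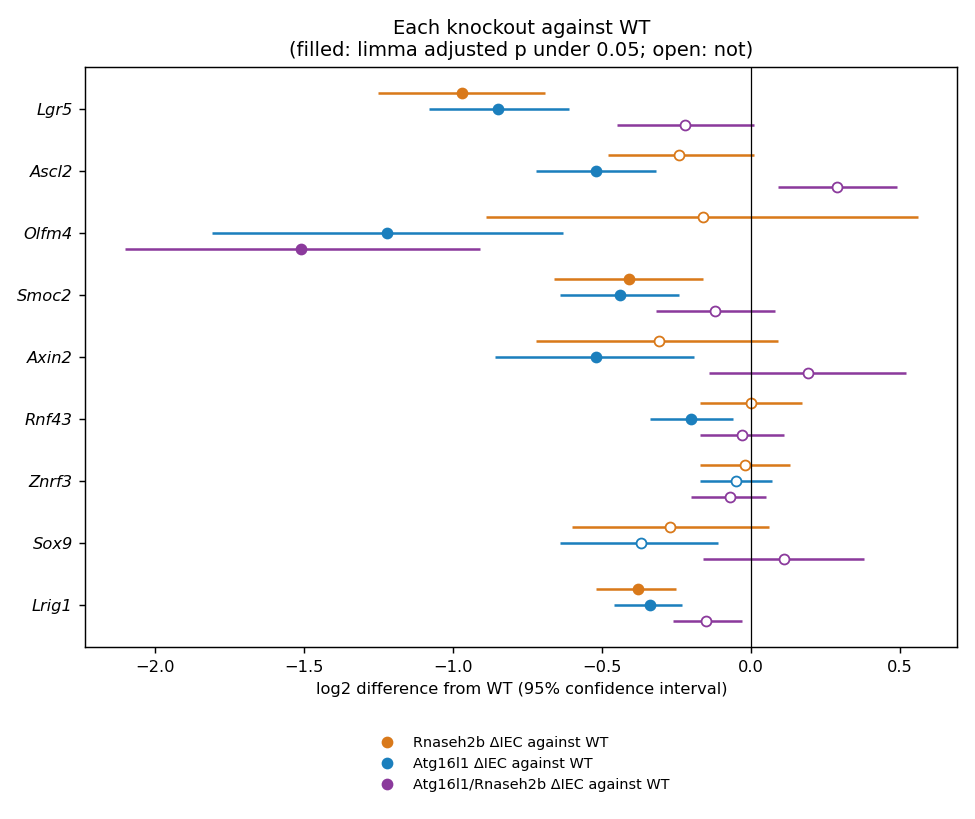
Log2 difference of each gene from WT (x axis, points, with 95% confidence intervals as lines) for *Rnaseh2b* ΔIEC (orange), *Atg16l1* ΔIEC (blue) and *Atg16l1/Rnaseh2b* ΔIEC (purple), with a filled point where the limma adjusted p is under 0.05. The single knockouts lie left of 0 for *Lgr5* (-0.97 and -0.85), and the double knockout has a filled point for *Olfm4* alone (-1.51).

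In the double knockout, 1 of the 9 genes, *Olfm4*, was lower than in WT and 0 were higher. The background was 8.01% of all genes called lower and 8.10% called higher. *Olfm4* was 2.84-fold lower (-1.51 ± 0.28, adjusted p = 0.0049), and every double knockout library was below every WT library. The libraries also did not overlap for *Lrig1*, so that this held for 2 members, against 22.3% of all genes. *Lgr5* differed by -0.22 (-0.45 to 0.01, adjusted p = 0.17), *Lrig1* by -0.15 (-0.26 to -0.03, adjusted p = 0.073) and *Smoc2* by -0.12 (-0.32 to 0.08, adjusted p = 0.40). *Ascl2* differed in the other direction, by 0.29 (0.09 to 0.49, adjusted p = 0.052), as did *Axin2* by 0.19 (-0.14 to 0.52, adjusted p = 0.41) and *Sox9* by 0.11 (-0.16 to 0.38, adjusted p = 0.58). *Rnf43* (-0.03, -0.17 to 0.11) and *Znrf3* (-0.07, -0.20 to 0.05) stayed near the WT mean. The intervals therefore allow an *Lgr5* level somewhat below that of WT, and the missed threshold does not show equal levels.

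Both groups had libraries in lane 1, and within that lane *Olfm4* differed by -1.49 (adjusted p = 0.023) and *Lgr5* by -0.06 (adjusted p = 0.78). *Axin2* (-0.01) and *Sox9* (-0.15) had the opposite sign within lane 1. *Ascl2* became a call without WT replicate 3 (0.36, adjusted p = 0.027) or *Atg16l1* ΔIEC replicate 4 (0.29, adjusted p = 0.039), and *Lrig1* without *Atg16l1* ΔIEC replicate 1 (-0.15, adjusted p = 0.034). With the paired libraries as correlated blocks, *Olfm4* was no longer a call (adjusted p = 0.13). Of the Paneth cell markers, 4 of 11 were higher in the double knockout (summed level 15.99 to 16.31 against 15.63 to 15.75), as were 4 of 12 proliferation genes (15.52 to 15.70 against 15.49 to 15.53). Their part in the members' differences was not tested.

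The double knockout and *Atg16l1* ΔIEC differ by genotype in *Rnaseh2b*, and 6 of the 9 genes were higher in the double knockout and 0 were lower. The level of *Atg16l1* was also higher in the double knockout (8.39 against 6.92), and the parts of these differences cannot be told apart. Over all genes, 12.6% were called higher and 12.5% lower. The libraries did not overlap for 5 members (23.9% of all genes), which were *Lgr5*, *Ascl2*, *Smoc2*, *Axin2* and *Sox9*. *Ascl2* was 1.75-fold higher (0.81 ± 0.09, adjusted p = 0.00018), *Axin2* 1.64-fold (0.71 ± 0.15, adjusted p = 0.0059), *Lgr5* 1.54-fold (0.62 ± 0.11, adjusted p = 0.0018), *Sox9* 1.4-fold (0.48 ± 0.12, adjusted p = 0.015), *Smoc2* 1.25-fold (0.32 ± 0.09, adjusted p = 0.025) and *Lrig1* 1.15-fold (0.20 ± 0.05, adjusted p = 0.017). *Rnf43* differed by 0.17 (0.03 to 0.31, adjusted p = 0.064). *Olfm4* did not share this direction, at -0.28 (-0.88 to 0.31, adjusted p = 0.47), and *Znrf3* differed by -0.02 (-0.14 to 0.10, adjusted p = 0.81).

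Within lane 2, which held the whole *Atg16l1* ΔIEC group and double knockout libraries 1 and 2, 5 members were higher: *Axin2* by 0.91 (adjusted p = 0.03), *Ascl2* by 0.81 (adjusted p = 0.0082), *Sox9* by 0.74 (adjusted p = 0.0035), *Lgr5* by 0.47 (adjusted p = 0.004) and *Smoc2* by 0.46 (adjusted p = 0.028). *Lrig1* differed by 0.15 there (adjusted p = 0.19). Of all 12802 genes, 1015 were called higher and 1058 lower in that fit, whose double knockout libraries were 1 pair. The *Smoc2* and *Lrig1* calls were each lost without *Atg16l1* ΔIEC replicate 3 (0.29 and 0.16) or replicate 4 (0.30 and 0.17), while *Rnf43* became a call without replicate 1 (0.23, adjusted p = 0.012). With the paired libraries as correlated blocks, 3 members were called, *Lgr5*, *Ascl2* and *Axin2*. In this comparison 7 of 7 goblet, 7 of 11 Paneth and 3 of 8 enteroendocrine cell markers were higher and 3 of 11 enterocyte markers were lower. The summed goblet level was 16.11 to 16.32 in the double knockout against 15.19 to 15.49, and that of the Paneth markers 15.99 to 16.31 against 15.05 to 15.60. The part of these markers in the members' differences was not tested.

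The double knockout and *Rnaseh2b* ΔIEC differ by genotype in *Atg16l1*, and 3 of the 9 genes were higher in the double knockout and 1 was lower, against 11.1% and 14.4% of all genes. The level of *Rnaseh2b* was also higher in the double knockout (7.81 against 7.18), and the parts of these differences cannot be told apart. The libraries did not overlap for 7 members, all but *Rnf43* and *Znrf3*, and for 49.9% of all genes. *Lgr5* was 1.68-fold higher (0.75 ± 0.13, adjusted p = 0.0019), *Ascl2* 1.44-fold (0.52 ± 0.11, adjusted p = 0.0059) and *Lrig1* 1.18-fold (0.24 ± 0.06, adjusted p = 0.017). *Olfm4* was 2.54-fold lower (-1.34 ± 0.34, adjusted p = 0.012). *Axin2* (0.50, 0.10 to 0.91, adjusted p = 0.066), *Smoc2* (0.29, 0.04 to 0.54, adjusted p = 0.079) and *Sox9* (0.37, 0.05 to 0.70, adjusted p = 0.087) missed the threshold, and *Rnf43* (-0.03, -0.20 to 0.14) and *Znrf3* (-0.05, -0.20 to 0.10) lay near 0.

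Within lane 2, with 2 libraries in each group, 7 members were called: *Axin2* (0.70), *Sox9* (0.63), *Lgr5* (0.59), *Ascl2* (0.53), *Smoc2* (0.43) and *Lrig1* (0.19) were higher and *Olfm4* was lower (-1.36), with adjusted p from 0.0021 to 0.031. Of all 12802 genes, 1605 were called higher and 2092 lower in that fit. Its double knockout libraries were 1 pair that deviated together, so these p-values measure the spread within pairs. The calls over all libraries leaned on the *Rnaseh2b* ΔIEC libraries, since without replicate 1 *Lgr5* was the only member left as a call. Without that replicate *Ascl2* differed by 0.44 (adjusted p = 0.078), *Olfm4* by -1.11 (adjusted p = 0.12) and *Lrig1* by 0.23 (adjusted p = 0.10). Without *Rnaseh2b* ΔIEC replicate 2, *Olfm4* (-1.58, adjusted p = 0.056) and *Lrig1* (0.25, adjusted p = 0.11) were lost. *Axin2* became a call without *Atg16l1* ΔIEC replicate 1 or 3 (0.50 in both) and *Sox9* without *Atg16l1/Rnaseh2b* ΔIEC replicate 3 (0.48). With the paired libraries as correlated blocks, *Lgr5* alone was called. Of the enterocyte markers, 9 of 11 were lower in this comparison (summed level 17.10 to 17.51 against 18.20 to 18.34), and 6 of 7 goblet cell markers were higher. Their part in the members' differences was not tested.

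Between the single knockouts, 0 of the 9 genes passed the test, against 6.81% of all genes in either direction, and 3 members had an unadjusted limma p under 0.05. The libraries did not overlap for *Olfm4*, *Ascl2* and *Sox9*, 3 members, and for 37.8% of all genes. *Olfm4* was 2.08-fold higher in *Rnaseh2b* ΔIEC than in *Atg16l1* ΔIEC organoids by the means (1.06, 0.33 to 1.79, adjusted p = 0.077), and it became a call without *Atg16l1* ΔIEC replicate 2 (1.33, adjusted p = 0.021). *Rnf43* differed by 0.20 (adjusted p = 0.15), and by 0.26 without *Atg16l1* ΔIEC replicate 1 (adjusted p = 0.049). *Ascl2* differed by 0.28 (0.04 to 0.53, adjusted p = 0.15). *Lgr5* differed by -0.12 (-0.41 to 0.16, adjusted p = 0.63), so the groups with the lowest *Lgr5* were not separated from each other. Of the enterocyte markers, 4 of 11 were higher in *Rnaseh2b* ΔIEC.

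The interaction sets the difference of the double knockout from *Atg16l1* ΔIEC against the difference of *Rnaseh2b* ΔIEC from WT. For 6 of the 9 genes the first difference was above the second by a test of the interaction itself, and for 0 it was below. Over all genes, a positive interaction was called for 17% and a negative one for 18.1%. *Lgr5* moved from -0.97 to 0.62, an interaction of 1.59 ± 0.17 (adjusted p = 4.6e-05). *Ascl2* had an interaction of 1.04 ± 0.15 (adjusted p = 0.00029), *Axin2* of 1.03 ± 0.24 (adjusted p = 0.0059), *Sox9* of 0.75 ± 0.20 (adjusted p = 0.011), *Smoc2* of 0.73 ± 0.15 (adjusted p = 0.0024) and *Lrig1* of 0.58 ± 0.08 (adjusted p = 0.0003). In each of these 6 genes the estimate was negative for *Rnaseh2b* ΔIEC against WT, where *Ascl2*, *Axin2* and *Sox9* did not pass the test, and positive for the double knockout against *Atg16l1* ΔIEC. Since the double knockout kept more *Atg16l1* than *Atg16l1* ΔIEC, the interaction is one of the labelled genotypes and not of 2 deletions of equal extent. *Rnaseh2b* went from 8.62 to 7.81 between *Atg16l1* ΔIEC and the double knockout. Between WT and *Rnaseh2b* ΔIEC it went from 8.54 to 7.18, a greater fall. WT was the one group without Cre, and WT and the single knockouts were in different lanes. The part of Cre in the interaction cannot be told apart from that of genotype, and values with lane as a covariate are given below. *Rnf43* (0.18, -0.04 to 0.40, adjusted p = 0.20) and *Znrf3* (0.00 to 2 decimals, -0.19 to 0.19) did not pass the test, nor did *Olfm4*, whose interval was wide (-0.12, -1.06 to 0.81, adjusted p = 0.85).

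**Figure D3:**
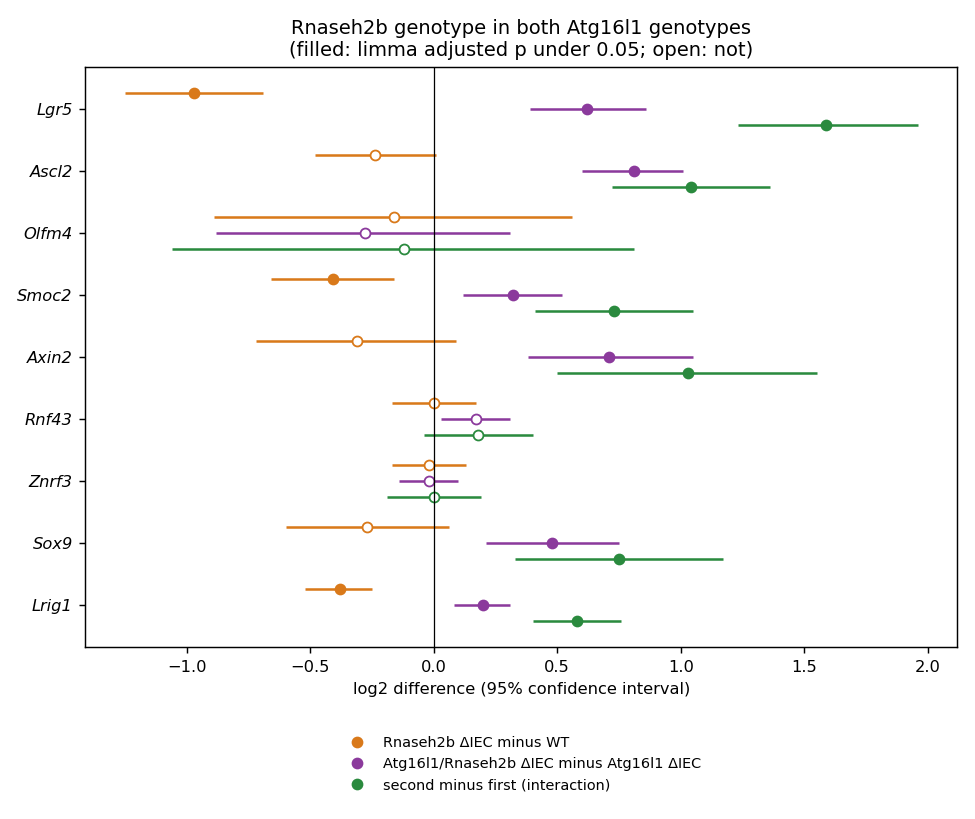
Log2 difference (x axis, points, with 95% confidence intervals as lines) for *Rnaseh2b* ΔIEC minus WT (orange), *Atg16l1/Rnaseh2b* ΔIEC minus *Atg16l1* ΔIEC (purple), and the second minus the first, the interaction (green), with a filled point where the limma adjusted p is under 0.05. Green points are filled and right of 0 for 6 genes, from *Lgr5* at 1.59 to *Lrig1* at 0.58, and open for *Olfm4*, *Rnf43* and *Znrf3*.

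These 6 genes were called for the interaction in all 14 fits that each left out 1 library, with lane as a covariate and with the paired libraries as correlated blocks. With lane as a covariate the interaction was 1.52 for *Sox9*, 1.62 for *Axin2*, 1.15 for *Smoc2*, 1.12 for *Lgr5*, 1.07 for *Ascl2* and 0.43 for *Lrig1* (adjusted p = 0.001 to 0.036). With the libraries of each pair averaged, which leaves 7 values, 0 members passed the limma test in this or any other comparison, and the same 6 genes had an unadjusted p under 0.05 for the interaction. All 7 goblet, 6 of 8 enteroendocrine and 6 of 11 Paneth cell markers had a positive interaction and 9 of 11 enterocyte markers a negative one, and their part in the members' interaction was not tested. Of the proliferation genes, 1 of 12 had a called interaction.

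Across the other parts of the Wnt pathway, 65 of 105 listed genes could be tested. Of these, 10 were lower and 4 higher in *Rnaseh2b* ΔIEC against WT, beside 12.3% and 14.4% of all genes. In *Atg16l1* ΔIEC against WT 13 were lower and 2 higher, beside 10.4% and 8.73%. In the double knockout against WT 5 were lower and 3 higher, beside 8.01% and 8.10%. Against *Atg16l1* ΔIEC 14 were higher and 5 lower, beside 12.6% and 12.5%. Against *Rnaseh2b* ΔIEC 8 were higher and 6 lower, beside 11.1% and 14.4%. Between the single knockouts 4 were higher and 1 lower in *Rnaseh2b* ΔIEC, beside 6.81% in either direction. The interaction was positive for 20 and negative for 9 of the 65, and its shares over all genes were given with the members. Whether any list differed from these shares was not tested. Of 14 genes of the β-catenin destruction complex and its regulators, 3 were lower in *Rnaseh2b* ΔIEC against WT, the kinase gene *Gsk3b* (-0.14), *Dvl2* (-0.17), whose product restrains the complex, and *Tnks* (-0.16), whose product marks Axin for degradation. These 3 were also lower in *Atg16l1* ΔIEC, with *Tnks2* (-0.10), a relative of *Tnks*. In the double knockout against WT, *Gsk3b* (-0.13, adjusted p = 0.01) and *Dvl2* (-0.17, adjusted p = 0.016) were lower too. *Tnks* did not pass the test there (-0.07, adjusted p = 0.19). Among 18 other stem cell signature genes, 5 were lower and 1 higher in *Rnaseh2b* ΔIEC against WT, and 6 were lower and 0 higher in *Atg16l1* ΔIEC. In the double knockout against *Atg16l1* ΔIEC 9 of these 18 were higher and 2 lower, and the interaction was positive for 9 and negative for 3. The same shares of all genes stand beside the counts of these 18. Of 11 genes of the EGF receptor family, its ligands and the *Lrig1* relatives, *Egfr* was lower in each single knockout, and 1 gene was higher, *Lrig3* in *Rnaseh2b* ΔIEC (0.26, adjusted p = 0.05) and *Erbb3* in *Atg16l1* ΔIEC.

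*Myc*, a Wnt target that drives growth, had lower levels in both single knockouts. Its values were 10.25, 10.24, 10.18 and 10.30 in WT, 9.74, 9.55, 9.46 and 9.44 in *Atg16l1* ΔIEC, 9.81 and 9.77 in *Rnaseh2b* ΔIEC and 10.78, 10.69, 10.29 and 10.34 in *Atg16l1/Rnaseh2b* ΔIEC libraries, with no overlap of the single knockouts with WT. It was lower than WT in *Atg16l1* ΔIEC (-0.69, adjusted p = 0.00048) and in *Rnaseh2b* ΔIEC (-0.45, adjusted p = 0.015), and the second call was lost without *Rnaseh2b* ΔIEC replicate 1 (-0.47, adjusted p = 0.085) or 2 (-0.43, adjusted p = 0.10). Its interaction was 1.43 ± 0.16 (adjusted p = 4.8e-05). *Egfr*, the receptor that Lrig1 restrains, had an interaction of 0.73 ± 0.09 (adjusted p = 8.1e-05), and *Rgmb*, a BMP co-receptor of the stem cell signature, of 1.03 ± 0.13 (adjusted p = 0.00013). *Rgmb* was lower in *Atg16l1* ΔIEC (-0.77, adjusted p = 6.8e-05) and in *Rnaseh2b* ΔIEC (-0.62, adjusted p = 0.001) than in WT, and also in the double knockout (-0.35, adjusted p = 0.014). *Wnt3*, the ligand made by Paneth cells, was lower in *Atg16l1* ΔIEC against WT (-0.34, adjusted p = 0.017) and higher in the double knockout against *Atg16l1* ΔIEC (0.33, adjusted p = 0.016). *Tcf7l2*, the main TCF factor of the crypt, had an interaction of 0.82 ± 0.18 (adjusted p = 0.0044). It was lower than WT in *Rnaseh2b* ΔIEC (-0.63, adjusted p = 0.0065) and in *Atg16l1* ΔIEC (-0.42, adjusted p = 0.024). The first call was lost without *Rnaseh2b* ΔIEC replicate 1 (-0.56). The second was lost without WT replicate 3 or 4 (-0.40 and -0.39) or *Atg16l1* ΔIEC replicate 1 or 2 (-0.33 and -0.39).

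Other genes of these lists went their own way, as *Olfm4* did among the members. *Clu*, a marker of regenerating epithelium, was higher in the double knockout than in WT (1.54 ± 0.32, adjusted p = 0.0082), *Atg16l1* ΔIEC (1.69 ± 0.32, adjusted p = 0.0031) and *Rnaseh2b* ΔIEC (1.65 ± 0.39, adjusted p = 0.009), the last of which was lost without *Rnaseh2b* ΔIEC replicate 1 (1.66, adjusted p = 0.063) or 2 (1.65, adjusted p = 0.085). *Igfbp4*, a secreted binder of insulin-like growth factors and stem cell signature gene, was lower in the double knockout than in WT (-1.11 ± 0.19, adjusted p = 0.0035), *Atg16l1* ΔIEC (-1.09) and *Rnaseh2b* ΔIEC (-1.34). *Cd44*, a Wnt target and adhesion receptor, was higher in the double knockout than in WT (0.57 ± 0.11, adjusted p = 0.0064). *Notum*, a secreted enzyme that inactivates Wnt ligands, was lower in the double knockout than in *Rnaseh2b* ΔIEC (-0.99 ± 0.18, adjusted p = 0.0021), with an adjusted p of 0.052 without *Rnaseh2b* ΔIEC replicate 2 (-0.84). *Apc*, *Lgr4* and *Mki67* passed in none of the 6 pairwise limma comparisons, with smallest adjusted p of 0.071 for each. *Apc* had an interaction of 0.27 (adjusted p = 0.021), which was lost without *Rnaseh2b* ΔIEC replicate 1 (0.26, adjusted p = 0.074) or 2 (0.27, adjusted p = 0.073). *Ctnnb1*, which encodes β-catenin, was higher in the double knockout than in *Atg16l1* ΔIEC by 0.09 (adjusted p = 0.046), and this call was lost in 12 of the 14 fits that left out 1 library, at 0.08 to 0.10.

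Other named genes had smaller or less stable differences. In *Rnaseh2b* ΔIEC against WT, *Ccnd1*, which encodes cyclin D1, was higher (0.45, and 0.43 with an adjusted p of 0.055 without *Rnaseh2b* ΔIEC replicate 2), as was *Msi1*, an RNA-binding protein of stem cells (0.45, adjusted p = 0.0008). *Bcl9*, a β-catenin cofactor, was lower (-0.48) and was lost without *Rnaseh2b* ΔIEC replicate 1 (-0.42, adjusted p = 0.11) or 2 (-0.54, adjusted p = 0.053). In *Atg16l1* ΔIEC against WT, *Erbb3*, a receptor of the EGF receptor family, was higher (0.26, adjusted p = 0.0023), as were *Birc5*, an inhibitor of apoptosis (0.18), and *Tle4*, a corepressor of TCF factors (0.15). *Ccnd1* (0.38, adjusted p = 0.0081) and *Msi1* (0.34, adjusted p = 0.0037) were higher in the double knockout than in WT too. *Aqp4*, a water channel, was lower in the double knockout than in WT (-0.45, adjusted p = 0.0017). The receptor gene *Fzd4* was also lower there (-0.41), but not past the threshold without WT replicate 1 or 2 (-0.37 for both) or double knockout replicate 1 (-0.31) or 2 (-0.40). Between the single knockouts *Prom1*, a membrane glycoprotein of progenitor cells, was lower in *Rnaseh2b* ΔIEC (-0.32, adjusted p = 0.0012). *Ephb2*, a Wnt target that positions cells along the crypt, was higher in the double knockout than in *Atg16l1* ΔIEC (0.25, adjusted p = 0.0091).

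Further calls that leaving out 1 library ended were found for *Notum*, *Plaur*, *Nr2e3*, *Ereg*, *Sp5* and *Fzd6*. *Notum* was higher in *Rnaseh2b* ΔIEC than in WT (0.64, adjusted p = 0.018), but not without *Rnaseh2b* ΔIEC replicate 1 (0.79, adjusted p = 0.051) or 2 (0.49, adjusted p = 0.19). Against *Rnaseh2b* ΔIEC, the double knockout had more *Plaur*, the urokinase receptor gene (1.02, lost without *Rnaseh2b* ΔIEC replicate 1 or 2, adjusted p = 0.094 and 0.12), and less *Nr2e3*, which encodes a nuclear receptor (-0.98, and -0.90 with an adjusted p of 0.082 without replicate 2). *Ereg*, a ligand of EGF receptors, was lower in the double knockout than in *Atg16l1* ΔIEC (-0.44), but not without *Atg16l1* ΔIEC replicate 3 or 4 or double knockout replicate 1, 2 or 4 (-0.46 to -0.36). In *Rnaseh2b* ΔIEC against *Atg16l1* ΔIEC, *Sp5*, a transcription factor and Wnt target, was higher (0.44), and was lost without *Atg16l1* ΔIEC replicate 1, 3 or 4 or *Rnaseh2b* ΔIEC replicate 1 or 2 (0.33 to 0.54). The receptor gene *Fzd6* was lower there (-0.32), and was lost without *Atg16l1* ΔIEC replicate 4 or *Rnaseh2b* ΔIEC replicate 1 or 2 (-0.33 to -0.30).

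**Figure D4:**
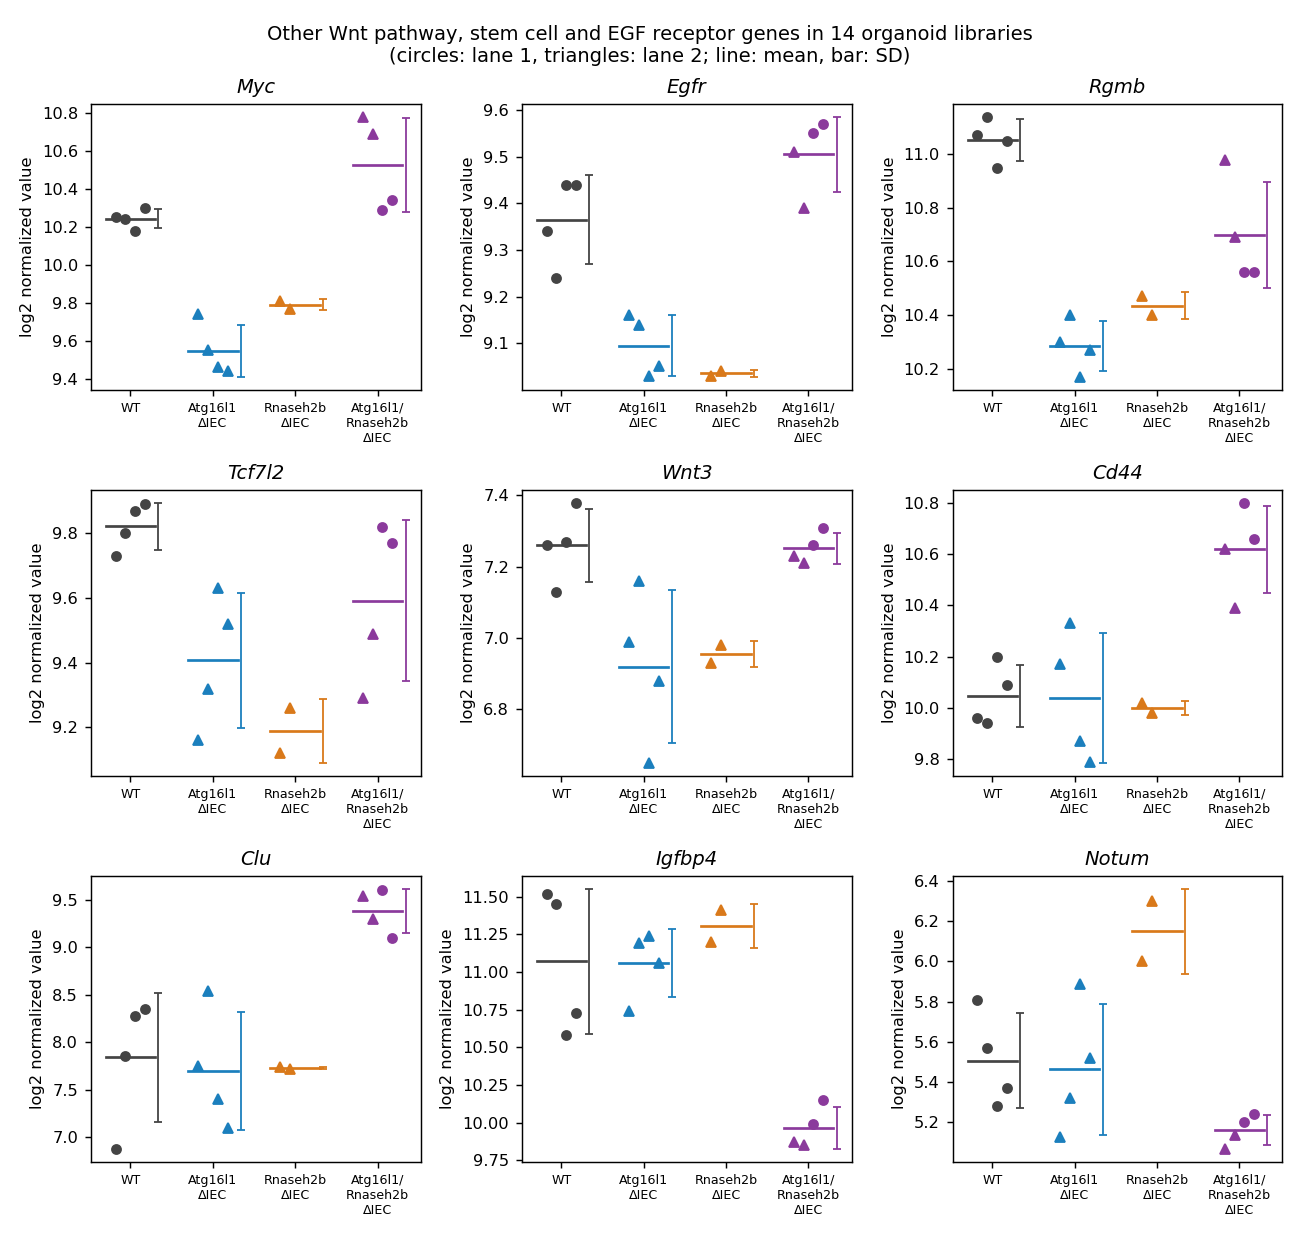
Log2 normalized value (y axis, a separate scale for each gene) of 9 other Wnt pathway, stem cell and EGF receptor genes in the 14 libraries, grouped by genotype (x axis), with circles for lane 1, triangles for lane 2, lines for means and bars for SDs. *Myc*, *Egfr* and *Rgmb* are low in both single knockouts, *Clu* is highest and *Igfbp4* lowest in every double knockout library. The double knockout mean of *Rgmb* also lies below that of WT.

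Among the genes whose pattern over the 14 libraries was most like that of *Lgr5* were *Smtnl2* (Pearson r = 0.973), *Hilpda* (0.972), *Ncoa4* (0.969) and *Ppp2r3a* (0.967), out of 12802 genes tested. *Axin2* was most like *Baz1b* (0.979), *Camsap1* (0.968), *Suox* (0.963), *Stip1* (0.961) and *Klhl21* (0.957). These libraries share genotype, lane and pair, and the values only rank likeness. Among the 15 pairs of the 6 genes with a called interaction, r ranged from 0.54 to 0.93 over the libraries and from -0.33 to 0.84 after each genotype's mean was subtracted. *Olfm4* had r of -0.08 to 0.34 with the 8 other members.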

How the data were processed

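Total RNA of 14 untreated organoid cultures was prepared as stranded mRNA libraries. Per the labels and the study's methods, the authors used cutadapt for trimming, TopHat2 for alignment (GRCm38), HTSeq for gene counts and DESeq2 for normalization. The authors deposited log2 values for 18781 genes, and the transformation is not given in the sources used here. No count model could be run, and read depth is unknown. Gene symbols were found for 99.7% of the identifiers, and GENCODE M21 gave the gene coordinates and exon lengths.

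limma 3.58.1 in R 4.3.3 (lmFit, contrasts.fit, eBayes with a mean trend) was fitted with a term for each genotype to the 14 libraries together, on the 12802 genes whose mean reached 3.32 (10 on the linear scale). P-values were two-sided and adjusted by the Benjamini-Hochberg method over these genes at 0.05, in 7 comparisons. The interaction is (double knockout minus *Atg16l1* ΔIEC) minus (*Rnaseh2b* ΔIEC minus WT). The method was tested on simulated data. Summed levels are the log2 of summed back-transformed values.

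The members and gene lists were chosen with earlier results of these data known. All 9 members were named in every comparison, and the rule for other names took the 3 greatest called differences in each direction over the Wnt pathway, stem cell and EGF receptor lists, *Wnt3*, *Lgr4*, *Ctnnb1*, *Tcf7l2*, *Apc*, *Myc*, *Ccnd1*, *Cd44*, *Ephb2*, *Egfr* and *Mki67*, and the 5 genes most like *Lgr5* and *Axin2*, of which 1 is not reported here. Alternatives were no filter, a filter at 50, pseudocounts of 1 and 5, scaling to the upper quartile or to the total, a lane term, the replicate block, paired libraries averaged or as duplicateCorrelation blocks, no mean trend, fits of fewer libraries and leaving out each library. Figures were drawn with matplotlib 3.10.9.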

Additional observations from a re-analysis of the deposited data

Results flagged for a closer look

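The difference of the double knockout from *Atg16l1* ΔIEC was not that of *Rnaseh2b* ΔIEC from WT for 6 of the 9 genes by the limma interaction test, which is what marks them for a closer look. The differences were 1.59 for *Lgr5*, 1.04 for *Ascl2*, 1.03 for *Axin2*, 0.75 for *Sox9*, 0.73 for *Smoc2* and 0.58 for *Lrig1*, each with a negative estimate for *Rnaseh2b* ΔIEC against WT and a positive one for the double knockout against *Atg16l1* ΔIEC. The double knockout held more *Atg16l1* (8.39) than *Atg16l1* ΔIEC (6.92), and more *Rnaseh2b* (7.81) than *Rnaseh2b* ΔIEC (7.18). WT was the one group without Cre, whose part cannot be told apart from that of genotype. *Znrf3*, *Rnf43* and *Olfm4* did not pass that test. No library stood apart from the others of its group by Dixon's test in the 27 groups of 4 libraries tested. Where libraries deviate in pairs this test can hardly single out 1 library, and the *Rnaseh2b* ΔIEC group of 2 was not tested.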

How the results depend on the processing

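Values of single genes under all alternatives were tallied for the members and other named genes together, so the tally is not one of the members alone. Of these values, 2793 kept their direction and their side of the threshold, 308 lost a call, 38 gained one and 49 changed sign. Of the counts of members called, 164 stayed within 1.5 times the main count and 21 moved. When 1 library was left out at a time, the count of members called ranged from 2 to 3 for *Rnaseh2b* ΔIEC against WT (3 over all libraries), from 5 to 8 for *Atg16l1* ΔIEC against WT (7), from 1 to 2 for the double knockout against WT (1), from 4 to 7 against *Atg16l1* ΔIEC (6), from 1 to 5 against *Rnaseh2b* ΔIEC (4) and from 0 to 1 between the single knockouts (0), and it was 6 throughout for the interaction. With paired libraries averaged, 0 members passed in any comparison, a fit with 3 residual degrees of freedom, while 3, 5, 1, 6, 4, 1 and 6 had an unadjusted p under 0.05 in the same order. With the pairs as correlated blocks the counts were 2, 3, 0, 3, 1, 0 and 6. The replicate numbers did not pair the samples, since same-numbered libraries of different genotypes had correlated deviations of -0.502 to 0.442 (18 pairs), and with the replicate block the counts were 4, 8, 1, 7, 7, 0 and 7. In the double knockout against *Rnaseh2b* ΔIEC, total scaling and the fit within lane 2 also called 7 members. A pseudocount of 5 called 2 in the double knockout against WT, with *Ascl2* at 0.27.

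Sign changes were limited to values that had not passed the test. *Axin2* and *Sox9* in the double knockout against WT became -0.01 and -0.15 with lane as a covariate and within lane 1. *Znrf3* became 0.05 in the double knockout against *Atg16l1* ΔIEC (lane, within lane 2), and its interaction became 0.06 (total scaling), 0.22 (lane) and 0.07 (replicate block). Against *Rnaseh2b* ΔIEC, *Rnf43* became 0.03 (total scaling, lane, within lane 2) and 0.05 (replicate block), and *Znrf3* 0.00 (total scaling), 0.02 (lane, within lane 2) and 0.01 (replicate block). Between the single knockouts, *Smoc2* became -0.00 (total scaling) and -0.07 (replicate block), *Znrf3* -0.00 and -0.04, and *Sox9* -0.03 (replicate block). When 1 library was left out at a time, the ranges that crossed 0 were, in *Rnaseh2b* ΔIEC against WT, -0.39 to 0.07 for *Olfm4*, -0.04 to 0.04 for *Rnf43* and -0.06 to 0.02 for *Znrf3*, in the double knockout against WT, -0.06 to 0.01 for *Rnf43* and -0.02 to 0.21 for *Sox9*, and for *Znrf3* -0.06 to 0.01 against *Atg16l1* ΔIEC and for *Rnf43* -0.07 to 0.01 against *Rnaseh2b* ΔIEC. They were -0.01 to 0.08 for *Smoc2*, -0.01 to 0.07 for *Znrf3* and -0.08 to 0.01 for *Lrig1* between the single knockouts, and -0.36 to 0.15 for *Olfm4* and -0.04 to 0.04 for *Znrf3* for the interaction. The cause of these changes was not tested.

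Total scaling changed the split of all called genes, from 1848 higher and 1576 lower to 1388 and 2117 for *Rnaseh2b* ΔIEC against WT, from 1417 and 1845 to 2377 and 1304 for the double knockout against *Rnaseh2b* ΔIEC, from 2180 and 2319 to 2933 and 1778 for the interaction, and from 556 and 316 to 418 and 523 between the single knockouts (455 and 417 with upper quartile scaling). Over all genes, the correlated blocks called 428 higher and 300 lower, 143 and 241 (1117 and 1333 in the main analysis), 36 and 49 (1037 and 1026), 245 and 233 (1616 and 1602), 193 and 499, 53 and 8, and 679 and 874 in the order above, and averaging the pairs called at most 2 genes in any comparison. With lane as a covariate the interaction was called as positive for 1219 and negative for 1361 genes. Depth is unknown, so counting error could not be given. The interaction has no value within 1 lane or in fits of fewer groups.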
